A study of Mus musculus with 8 samples.

Results

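The genes described here encode complexes II, III, IV and V of the mitochondrial respiratory chain and cytochrome c, measured in satellite cells, which are stem cells that lie along the fibres of skeletal muscle. Members were all probes whose array gene name begins with Sdh, Uqcr, Atp5, Cox4, Cox5, Cox6, Cox7 or Cox8, or is Cyc1 or Cycs. The names gave 81 of 55681 probes and 52 of 21537 named genes. Of the 52 genes, 39 encode subunits found in most tissues (4 of complex II, 9 of complex III with Cyc1, 11 of complex IV and 15 of complex V) and Cycs encodes cytochrome c. The muscle isoforms Cox6a2, Cox7a1 and Cox8b were set apart, as were Cox4i2, Cox6b2, Cox7b2 and Cox8c, which are isoforms of other tissues. The last 5 names belong to no subunit: Sdhaf1, Sdhaf2, Atp5s, Atp5sl and Cox4nb.

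The injured group was satellite cells taken 3 days after cardiotoxin, a cobra venom peptide that kills muscle fibres (n = 4 arrays), and the basal group was satellite cells of uninjured muscle (n = 4 arrays). All samples were labelled as male C57BL/6 mice aged 3 months, the columns of the deposited table mark all of them as WT, and each array held total RNA of 1 labelled biological replicate on a 1-colour Agilent array. Cells had been sorted for integrin alpha 7 and against CD31, CD45, CD11b and Sca1. The labels name no particular muscle and do not say whether animals were pooled. The comparison asks which transcripts set activated satellite cells apart from quiescent ones, in the submitters' terms.

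The respiratory chain lies in the inner mitochondrial membrane. Complex II (succinate dehydrogenase) also works in the tricarboxylic acid cycle and passes electrons from succinate to ubiquinone. Complex III passes them on to cytochrome c, a small mobile protein, and complex IV (cytochrome c oxidase) gives them to oxygen. Complexes III and IV pump protons out of the matrix, and complex V (ATP synthase) makes ATP as protons flow back. All subunits of complex II are encoded in the nucleus, whereas complexes III, IV and V also hold subunits encoded by the mitochondrial genome. Nuclear genes of the chain are known targets of the transcription factors NRF1 and GABP, and heart and skeletal muscle replace some complex IV subunits with isoforms of their own. Quiescent satellite cells are known for few mitochondria and low oxidative metabolism, both of which increase on activation.

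Promoters are shown as a description of these genes, and their part in the response to injury was not tested. RefSeq windows (GRCm38.p6) of 300 bases, 250 before and 50 after the start, were at hand for 40 of the 52 genes and for 32 of the 40 genes of subunits and cytochrome c. The windows below belong to the genes with the largest differences in complexes II and III and to the only tested muscle isoform with an entry. Capitals mark matches, on either strand, to the NRF1 consensus and to the ETS core CCGGAAG, which GABP binds. The marked stretches do not overlap each other. Sdhd is at chr9:50603800-50604099 (minus strand), Uqcrc1 at chr9:108936398-108936697 (plus strand) and Cox7a1 at chr7:30183921-30184220 (plus strand). Each is written 5′ to 3′ along its gene.
Sdhd: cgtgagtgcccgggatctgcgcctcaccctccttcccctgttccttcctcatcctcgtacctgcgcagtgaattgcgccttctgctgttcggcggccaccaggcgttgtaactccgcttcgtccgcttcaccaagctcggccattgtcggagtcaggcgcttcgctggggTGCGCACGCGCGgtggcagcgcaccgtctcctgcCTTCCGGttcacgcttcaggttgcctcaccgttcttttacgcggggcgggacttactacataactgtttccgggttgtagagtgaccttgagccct
Uqcrc1: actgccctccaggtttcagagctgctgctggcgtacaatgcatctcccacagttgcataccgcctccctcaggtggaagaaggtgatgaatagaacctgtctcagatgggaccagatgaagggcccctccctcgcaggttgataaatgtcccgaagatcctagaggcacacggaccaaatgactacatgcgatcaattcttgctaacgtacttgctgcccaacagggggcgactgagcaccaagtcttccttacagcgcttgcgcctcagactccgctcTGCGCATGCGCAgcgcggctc
Cox7a1: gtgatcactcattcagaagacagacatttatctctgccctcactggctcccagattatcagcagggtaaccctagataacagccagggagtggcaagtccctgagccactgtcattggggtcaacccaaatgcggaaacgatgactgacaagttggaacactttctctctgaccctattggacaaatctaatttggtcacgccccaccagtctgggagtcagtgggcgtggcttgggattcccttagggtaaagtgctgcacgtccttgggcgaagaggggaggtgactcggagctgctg

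Sdhd holds the NRF1 consensus and the ETS core, Uqcrc1 holds the NRF1 consensus and Cox7a1 holds neither. The windows of Cycs, Cox5a and Atp5g3, the genes with the largest differences for cytochrome c, complex IV and complex V, also hold neither. Over the 32 subunit genes with a window, 12 (37.5%) held the ETS core, against 9.93% of all 27025 genes with a window. Those 27025 include genes that were not tested on these arrays, and shares over the tested genes alone were not computed. The NRF1 consensus was present in 4 (12.5%), namely Sdhd, Uqcrc1, Atp5c1 and Atp5g2, against 1.41% of all genes. One or both were found in 15 of the 32 (46.9%), against 11.1% of all genes. The ERR site AAGGTCA was present in 5 (15.6% against 5.38%) and the YY1 core AAGATGG in 4 (12.5% against 7.28%). The Sp1 box GGGCGG was about as frequent as elsewhere, at 37.5% against 38.2%. The E-box CAGCTG, which MyoD can bind, was present in 1 window (3.12% against 18.3%) and the MEF2 consensus in 0 (against 3.70%). Subunit windows had a median GC content of 56.8%, against 52.8% for all windows. None of Cox7a1, Cox8b, Cox6b2 and Cox7b2, the tissue isoforms with a window, held the NRF1 consensus or the ETS core. A match of letters is a description of the window and shows no binding.

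The samples fell into their labelled groups, with exceptions that touch the results. Between 50.1% and 56.7% of spots were well above background on each array, and none was saturated. Across 10621 genes, which are no independent replicates, pairs of injured arrays had a Pearson's r of 0.989 to 0.996 and pairs of basal arrays of 0.954 to 0.978. Pairs of 1 injured and 1 basal array had an r of 0.831 to 0.922. Of 8 satellite cell markers, 6 (Pax7, Itga7, Cdh15, Vcam1, Spry1 and Myod1) were above background on all 8 arrays. Calcr and Chrdl2 were so on the basal arrays only. After injury 5 of the 8 were lower, Pax7 by a log2 difference of -2.95, beside 24.7% of all genes tested. A further 2 were higher, beside 35.5% of all genes tested, and 1 was not called. Of 14 adult fibre markers, Acta1, Tnni2, Tnnt3, Atp2a1, Actn3, Mybpc2, Myh7 and Pvalb were above background on all 8 arrays, and Ckm on 1 basal array. Basal replicates 1 and 2 stood apart in endothelial and adipocyte markers. All samples were labelled male, but Xist was at 6.37 to 6.57 on injured replicates 2, 3 and 4 and at 1.72 on injured replicate 1, against 3.85, 2.15, -1.12 and -4.97 on basal replicates 1 to 4. The Y-linked Ddx3y, Uty, Kdm5d and Eif2s3y were not above background on injured replicates 2, 3 and 4. Each of the 2 slides held 1 group, so slide and injury cannot be told apart. The number of arrays limits the precision, and in these bulk samples a change in the share of cells of a type cannot be told apart from a change in RNA per cell.

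Respiratory genes of complexes II to V were higher after injury almost throughout. Of the 52 genes, 47 were well above background on at least 3 arrays of a group and were tested with limma (adjusted p over all 13560 genes tested, threshold 0.05). Higher calls numbered 41, and 35.5% of all genes tested were called higher. Lower calls numbered 2, Cox4i2 and Cox6b2, and 24.7% of all genes tested were called lower. Cox6b1, Cox6a2, Sdhaf1 and Atp5sl were not called. The groups did not overlap for 40 genes that were higher (34.0% of all genes tested) and for 1 that was lower (23.2% of all genes tested). Without basal replicates 1 and 2, 44 of the 47 genes were called higher (36.1% of all genes). Without injured replicates 2, 3 and 4, which leaves 1 injured array whose spread is taken from the basal arrays, 9 were called (5.61% of all genes), while the median difference of the subunit and cytochrome c genes was 1.54, beside 1.55 with all arrays. In the authors' deposited table Sdhd, Uqcrb, Cyc1, Cox6c, Cox7a1, Cox7a2l, Cox7c, Cox8a, Atp5e, Atp5j2, Atp5k and Atp5l were not called higher, with differences of 0.17 to 1.19.

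All 40 genes for subunits and cytochrome c were tested, and all had a positive difference. Higher calls numbered 39, against 35.5% of all genes tested, and 34 genes rose at least 2-fold, against 21.3%. The median log2 difference of the 40 genes, injured minus basal, was 1.55 (2.93-fold), with a range of 0.40 to 2.80. The median over all genes tested was 0.17. Only 10.8% of all genes tested had a difference at or above the subunits' median. The medians of the complexes lay close together, at 1.63 for complex II, 1.56 for complex III, 1.50 for complex IV and 1.48 for complex V, so the spread was mostly within a complex. The genes lie on 18 chromosomes. Injured arrays varied little: the median SD over the 40 genes was 0.105 among injured arrays and 0.501 among basal arrays, against 0.174 and 0.339 over all genes tested.

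**Figure D1:**
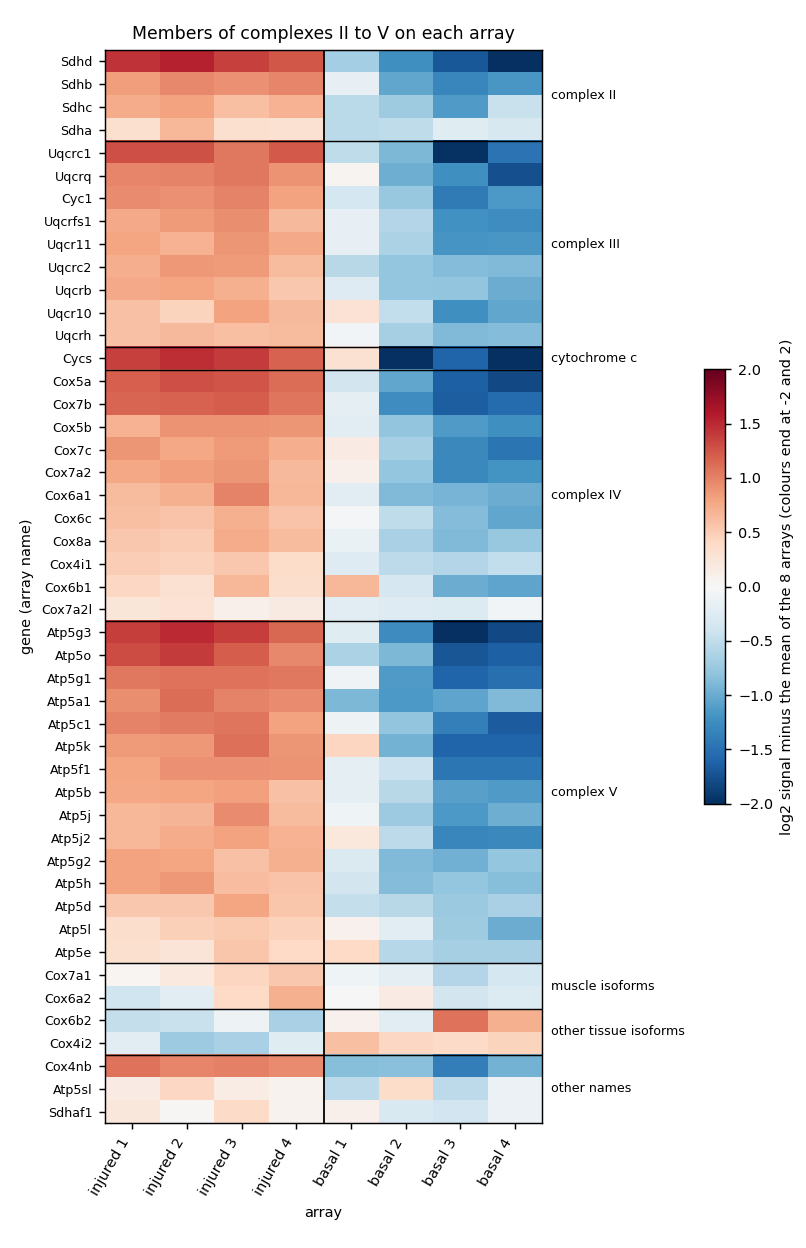
Each row is 1 of the 47 member genes tested and each column an array. Colour gives the log2 signal minus the gene's mean over the 8 arrays, grouped by complex. The 4 injured arrays are above the mean for nearly all subunit genes, and basal replicate 1 lies between the injured arrays and basal replicates 3 and 4.

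The basal arrays were not alike in these genes. Basal replicate 1 was the highest of the 4 basal arrays for 36 of the 40 subunit and cytochrome c genes. On a scale where the mean of basal replicates 3 and 4 is 0% and the injured mean is 100%, the median position over the 40 genes was 50.5% for basal replicate 1 and 19.5% for basal replicate 2. Over all genes called higher it was 30.8% for basal replicate 1 and 11.6% for basal replicate 2. Basal replicate 1 exceeded the lowest injured array for Cox6b1 and Atp5e. Some marker sums also moved with this array. The summed linear signal of the 8 differentiating muscle markers, in units of the array's 75th percentile, was 21.9 to 67.7 on injured arrays, against 7.12 on basal replicate 1 and 0.919 to 3.91 on the other basal arrays. The sum over 7 endothelial markers was 9.23 to 11.5 on injured arrays, against 38.6 and 30.9 on basal replicates 1 and 2 and 27.6 and 22.7 on basal replicates 3 and 4. The sum over 5 Schwann cell markers was 7.81 to 9.71 on injured arrays, against 35.8 on basal replicate 1 and 9.84 to 10.68 on the other basal arrays. The sum over 5 adipocyte markers was 1.28 to 2.55 on injured arrays, against 32.1 and 29.2 on basal replicates 1 and 2 and 2.06 and 1.82 on basal replicates 3 and 4, and Fabp4 made up nearly all of it on basal replicates 1 and 2. The sum over 6 fibro-adipogenic markers separated the groups, at 0.363 to 1.09 on injured arrays, against 16.0 to 30.9 on basal arrays. All 3 tested genes of that list were lower (Dcn by a log2 difference of -7.79), beside 24.7% of all genes tested. The sum over 14 adult fibre markers separated the groups the other way, at 109 to 162 on injured arrays, against 46.8 to 56.3 on basal arrays. Of the 9 fibre markers tested, 3 were called higher and 2 lower, beside 35.5% and 24.7% of all genes tested. Leukocyte and macrophage markers (8 genes) summed to 492 to 584 on injured arrays, against 473 to 541 on basal arrays. Of the 6 tested, 1 was called higher and 1 lower, beside 35.5% and 24.7% of all genes tested. The part of any of these cells in the respiratory genes was not tested. Without basal replicates 1 and 2 the median difference of the 40 genes was 1.96.

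Succinate dehydrogenase rose in all 4 subunits (35.5% of all genes tested were called higher), but by unequal amounts. Values are log2 signals relative to the 75th percentile of the array, in replicate order. Sdhd, an anchor subunit in the membrane (probe at chr9:50404630-50404689, mm9), was at 0.77, 0.87, 0.69 and 0.56 on injured arrays, against -1.36, -1.90, -2.38 and -2.67 on basal arrays. All injured arrays lay above 0 and all basal arrays below it, a difference of 2.80 ± 0.27 (SE, adjusted p = 6.66e-05, limma) and the largest of the members. In the authors' deposited table the difference was 0.18 and not called (adjusted p = 0.827). Sdhb, the iron-sulphur subunit, was at 3.43, 3.55, 3.51 and 3.56 on injured arrays, against 2.42, 1.55, 1.28 and 1.42 on basal arrays. Basal replicate 1 was the highest basal array, still below every injured one, and the difference was 1.84 ± 0.24 (adjusted p = 0.000292). Sdhc, the other anchor subunit, was at 2.74, 2.82, 2.61 and 2.70 after injury, against 1.46, 1.29, 0.87 and 1.56 in basal cells, a difference of 1.42 ± 0.17 (adjusted p = 0.00018). Sdha, the flavoprotein that oxidises succinate, rose least. It was at 1.41, 1.75, 1.41 and 1.39 on injured arrays, against 0.54, 0.59, 0.84 and 0.76 on basal arrays, a difference of 0.81 ± 0.14 (adjusted p = 0.00114). For Sdha, unlike the other subunits of the complex, basal replicates 1 and 2 were the lowest basal arrays.

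Assembly factors of complex II are named alongside its subunits on the array. Sdhaf1, which helps insert the iron-sulphur clusters, was at 1.09, 0.90, 1.25 and 0.94 on injured arrays, against 0.97, 0.55, 0.48 and 0.75 on basal arrays. The groups overlap, and the difference of 0.36 ± 0.15 was not called (adjusted p = 0.0694), though it was without basal replicate 1 (0.45, adjusted p = 0.0234). Sdhaf2, which helps attach the flavin to Sdha, was not well above background on any array.

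All 9 nuclear complex III genes of the name rule rose without overlap between groups (34.0% of all genes tested did so), by 1.24 to 2.43 on the log2 scale. Uqcrc1, a core protein, was at 4.37, 4.36, 4.14 and 4.31 on injured arrays, against 2.58, 2.18, 1.10 and 1.61 on basal arrays. The basal arrays spread over 1 log2 unit, and the lowest injured array lay well above them (difference 2.43 ± 0.29, adjusted p = 0.000206). Uqcrq, a small accessory subunit, was at 5.29, 5.31, 5.37 and 5.22 after injury, against 4.37, 3.33, 3.09 and 2.57 in basal cells (difference 1.96 ± 0.33, adjusted p = 0.00118). Cyc1, cytochrome c1, hands electrons to cytochrome c. It was at 3.01, 2.97, 3.05 and 2.86 on injured arrays, against 1.70, 1.30, 0.64 and 0.91 on basal arrays, a difference of 1.84 ± 0.22 (adjusted p = 0.000203), but of 0.40 in the authors' deposited table (adjusted p = 0.435). The second core protein Uqcrc2 and the Rieske iron-sulphur protein Uqcrfs1 had differences of 1.54 and 1.60, and Uqcrb and Uqcr11 of 1.40 and 1.56. In the authors' deposited table Uqcrb had a difference of 0.17 (adjusted p = 0.682). The smallest differences were those of 2 small subunits. Uqcr10 was at 4.91, 4.77, 5.12 and 4.97 after injury, against 4.60, 3.83, 3.09 and 3.28 in basal cells, with basal replicate 1 just below the injured arrays (difference 1.24 ± 0.31, adjusted p = 0.00751). That is its brightest probe, and 2 other Uqcr10 probes gave 2.06 and 2.14, so its place among the smallest differences rests on the choice of probe. Uqcrh, the hinge protein, was at 5.65, 5.72, 5.67 and 5.69, against 5.01, 4.39, 4.17 and 4.20 in basal cells (difference 1.24 ± 0.19, adjusted p = 0.00073).

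Cytochrome c carries electrons from complex III to complex IV and, when released into the cytosol, starts the apoptosome. Cycs was at 4.43, 4.55, 4.47 and 4.25 on injured arrays, against 3.38, 0.93, 1.46 and 1.06 on basal arrays. Injured arrays agreed closely, while basal replicate 1 lay about 2 log2 units above the other basal arrays. The difference was 2.72 ± 0.49 (adjusted p = 0.00154), or 6.58-fold, and 3.16 without basal replicates 1 and 2. A second Cycs probe gave 1.75, and the remaining probe was not above background on enough arrays.

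Complex IV held both large and small differences. Cox5a, a nuclear-encoded subunit on the matrix side (probe at chr9:57379593-57380141, mm9), was at 4.79, 4.89, 4.85 and 4.72 on injured arrays, against 3.23, 2.56, 1.96 and 1.80 on basal arrays (difference 2.43 ± 0.29, adjusted p = 0.000201). Cox7b, an X-linked small subunit, was at 4.17, 4.19, 4.21 and 4.07 after injury, against 2.82, 1.76, 1.36 and 1.47 in basal cells (difference 2.31 ± 0.30, adjusted p = 0.000283). The injured arrays of both genes lay within a narrow band far above the basal arrays. Cox5b, which binds zinc, was at 4.83, 5.03, 5.03 and 5.01, against 3.91, 3.35, 2.99 and 2.91 in basal cells (difference 1.69 ± 0.22, adjusted p = 0.000293). Cox4i1, the regulatory subunit that binds ATP, rose by 0.93 ± 0.12, and Cox6a1, Cox6c, Cox7a2, Cox7c and Cox8a by 1.21 to 1.62.

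The complex IV genes that moved least were Cox6b1 and Cox7a2l. Cox6b1, which faces the intermembrane space, was at 3.46, 3.36, 3.71 and 3.40 on injured arrays, against 3.71, 2.71, 2.05 and 1.99 on basal arrays. Basal replicate 1 matched the highest injured array, and the difference of 0.87 ± 0.35 was not called (adjusted p = 0.0618). Without basal replicate 1 it was 1.23 and called (adjusted p = 0.00123). Cox7a2l, also known as Scaf1 for its place between complexes III and IV in supercomplexes, was at 5.69, 5.74, 5.55 and 5.64 after injury, against 5.23, 5.19, 5.18 and 5.40 in basal cells. The groups do not overlap, and the difference of 0.40 ± 0.11 was called (adjusted p = 0.0139), but it was 0.09 under quantile normalization (adjusted p = 0.555). Its 3 probes lie within the same stretch of chromosome 17 and disagreed. Those at chr17:83901291-83901350 and chr17:83901272-83901331 (mm9), which share a run of 41 of 60 bases, gave 0.57 and 0.40. The dimmest probe, with no run over 6 bases in common with either, gave -0.08 and was not called (adjusted p = 0.57).

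**Figure D2:**
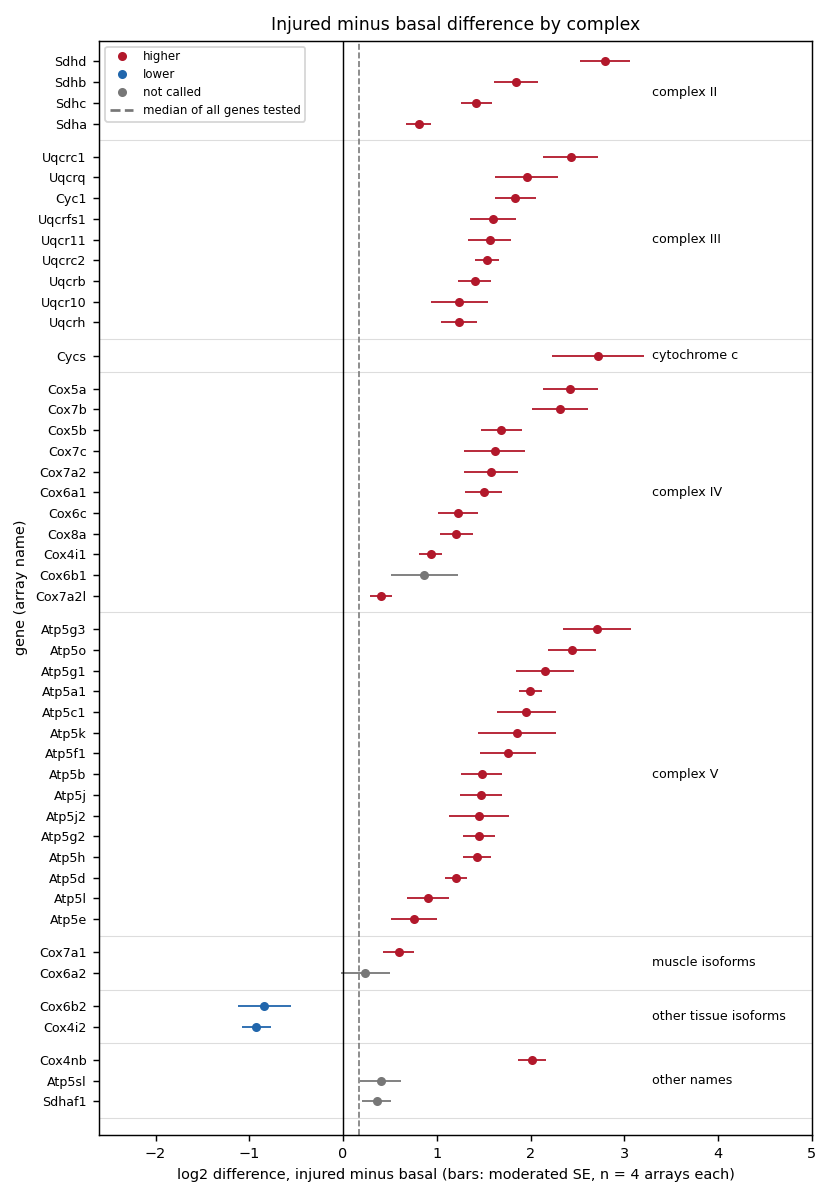
Points are log2 differences, injured minus basal, for the 47 member genes tested, with bars of 1 moderated SE (n = 4 arrays each). Genes are grouped by complex and coloured by call. All subunits lie right of the median of all genes tested (0.17, dashed), whereas Cox4i2 and Cox6b2 lie below 0 and Cox6a2 near that median.

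The 15 nuclear ATP synthase subunit genes of the name rule all rose, in the catalytic head and in the membrane part. The mitochondrially encoded ATP8 of this complex was not called (difference 0.28, adjusted p = 0.125, limma). All 15 were called, beside 35.5% of all genes tested. The head subunits Atp5a1 and Atp5b, which form the catalytic ring, had differences of 2.00 ± 0.12 and 1.48 ± 0.22, and the central stalk genes Atp5c1 and Atp5d of 1.96 ± 0.31 and 1.20 ± 0.12. Atp5a1 had the smallest adjusted p of the members (8.44e-06, limma), with basal arrays that differed by less than 0.3. Atp5o, which ties the head to the outer stalk and confers oligomycin sensitivity, was at 1.38, 1.47, 1.28 and 1.04 on injured arrays, against -0.56, -0.83, -1.64 and -1.56 on basal arrays (difference 2.44 ± 0.26, adjusted p = 0.000109). Its basal arrays were all below 0 and its injured arrays all above 1. Atp5f1 (now Atp5pb), Atp5h, Atp5j and Atp5j2 had differences of 1.43 to 1.76.

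Subunit c forms the rotor ring in the membrane, and 3 genes encode the same mature protein. Atp5g3 was at 5.43, 5.55, 5.44 and 5.20 on injured arrays, against 3.81, 2.80, 1.93 and 2.25 on basal arrays (difference 2.71 ± 0.36, adjusted p = 0.000354). Atp5g1 was at 4.68, 4.71, 4.71 and 4.68 after injury, against 3.54, 2.49, 2.01 and 2.11 in basal cells (difference 2.15 ± 0.31, adjusted p = 0.00048). Its injured arrays spanned under 0.1, the narrowest range of the 3 genes. Atp5g2 was at 7.24, 7.23, 7.02 and 7.14, against 6.15, 5.55, 5.47 and 5.65 in basal cells (difference 1.45 ± 0.17, adjusted p = 0.000165). The genes thus rose unequally: the log2 ratio of Atp5g1 to Atp5g2 was 0.70 higher in injured than in basal cells, and that of Atp5g1 to Atp5g3 was lower, with a difference of -0.55. Both ratios separated the groups on every array (exact permutation p = 0.0286, the smallest that 4 against 4 arrays allow, and 0.0343 after adjustment over the 6 pairs tested). The first ratio missed the threshold under quantile normalization (0.68, exact p = 0.114), and the second was 0.24 in the authors' deposited table (exact p = 0.4).

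The smallest differences in complex V were those of Atp5l and Atp5e. Atp5l, subunit g of the membrane part, was at 7.17, 7.29, 7.34 and 7.28 on injured arrays, against 6.91, 6.61, 6.11 and 5.83 on basal arrays (difference 0.91 ± 0.23, adjusted p = 0.00825), and its 6 probes gave 0.91 to 1.19. Atp5e, the epsilon subunit of the central stalk, was at 4.69, 4.62, 4.92 and 4.76 after injury, against 4.76, 3.80, 3.71 and 3.70 in basal cells. Basal replicate 1 lay among the injured arrays, and the call (0.76 ± 0.24, adjusted p = 0.0253) was lost when any of 5 single arrays was left out, with an adjusted p of 0.0543 to 0.0668. It was also lost under quantile normalization (0.45, adjusted p = 0.105), under normexp with quantile normalization (0.32, adjusted p = 0.197) and in the authors' deposited table (0.83, adjusted p = 0.0971).

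For Atp5k, subunit e of the membrane part, the array files place 2 of 3 probes on chromosome Y, although the reference gene table has the gene on chromosome 5. One probe of each place carries the same run of 27 bases, in capitals here, and whether both bind the same transcript was not tested. The probe used for Atp5k is the other one placed on chromosome Y (chrY:1599680-1599738), for which no shared run is given. The first 30 bases from the start of that run are given as the array files list them (mm9).
Atp5k, probe at chrY:1599617-1599676: CGAGCTTGCTTTTCTCTAGTCGTTGAGgac
Atp5k, probe at chr5:108862263-108862322: CGAGCTTGCTTTTCTCTAGTCGTTGAGaac

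The probe at chrY:1599617-1599676 was at 1.37, 1.44, 1.59 and 1.49 on injured arrays, against 0.87 on basal replicate 1 and -1.20 to -0.27 on the other basal arrays. It was above background on all 8 arrays, including the 3 injured arrays where no Y-linked gene was. The 3 Atp5k probes gave differences of 1.86 to 1.94. Cox5b likewise had a probe placed on chromosome 15 beside the one on chromosome 1, with differences of 1.77 and 1.69. In all, 19 member genes had more than 1 tested probe, and for 18 of them every probe had the same call, Cox7a2l being the exception.

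Tissue isoforms of complex IV differed among themselves: Cox7a1 was higher, Cox6a2 was not called, and Cox4i2 and Cox6b2 were lower. Cox7a1, the heart and muscle isoform of subunit VIIa (probe at chr7:30970337-30970948, mm9), was at 1.63, 1.78, 2.02 and 2.13 on injured arrays, against 1.51, 1.42, 1.00 and 1.25 on basal arrays. The groups do not overlap, and the gene rose by 0.59 ± 0.17 (adjusted p = 0.0134), a call not made in the authors' deposited table (0.86, adjusted p = 0.0964). Cox6a2, the heart and muscle isoform of subunit VIa, was dim, at -2.26, -2.09, -1.45 and -1.15 on injured arrays, against -1.86, -1.68, -2.21 and -2.14 on basal arrays. Injured replicates 3 and 4 were above all basal arrays and injured replicates 1 and 2 were not, and the difference of 0.24 ± 0.26 was not called (adjusted p = 0.458). Differentiating muscle markers were higher on the same arrays, with sums of 67.7 and 66.0 on injured replicates 3 and 4 and of 23.4 and 21.9 on injured replicates 1 and 2, and their part in the isoform values was not tested. Cox8b, the muscle isoform of subunit VIII, was not well above background on any injured array and on 1 basal array, so it was not tested. Of 9 adult fibre markers tested, 3 were higher (Tnni2 by 4.01, Tnnt3 by 2.47 and Atp2a1 by 1.14 on the log2 scale), beside 35.5% of all genes tested. Lower calls numbered 2 (Mb and Pvalb), beside 24.7% of all genes tested. Both counts lie close to those shares. A further 5 markers were above background on too few arrays to test.

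Cox4i2, known from lung and from oxygen-sensing cells, was the clearest fall. It was at -1.38, -1.88, -1.81 and -1.40 on injured arrays, against -0.55, -0.74, -0.77 and -0.71 on basal arrays. Every injured array lay below every basal array, a difference of -0.93 ± 0.16 (adjusted p = 0.00107), which was -0.38 to -1.01 under other scalings and background corrections of the scanner signals. In the authors' deposited table it was -0.58 and not called (adjusted p = 0.301). Pericyte and smooth muscle markers were lower too, 4 of 6 tested, beside 24.7% of all genes tested. Their sums were 17.7 to 30.7 on injured arrays, against 94.4 to 154 on basal arrays. Notch3 made up most of these sums, which without it were 4.39 to 8.22 on injured arrays, against 11.8 to 15.3 on basal arrays, and Cspg4 and Myh11 were not called. Among the 6 markers, Rgs5 and Pdgfrb were above background on all basal and no injured arrays. The part of pericytes and smooth muscle cells in the fall of Cox4i2 was not tested. Cox6b2, the testis isoform of subunit VIb, was at 1.18, 1.22, 1.55 and 1.01 on injured arrays, against 1.75, 1.45, 2.74 and 2.37 on basal arrays. Basal replicate 2 was below the highest injured array, so the groups overlap, and the call (-0.84 ± 0.28, adjusted p = 0.03) was lost without any of 5 single arrays, with an adjusted p of 0.0589 to 0.0759. Cox8c, a testis isoform, was at background on all 8 arrays. Cox7b2, also a testis isoform, was above background only on injured replicate 3, at 0.45 against -5.16 to -4.57 on the other injured arrays and -5.04 to -4.48 on basal arrays.

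For 4 isoforms the ratio to the widespread partner of the same subunit on the same array was tested, and it passed as lower after injury for 3 of them. A lower ratio shows unequal change only, not a fall of the isoform. The partners differed by 0.93 (Cox4i1), 1.50 (Cox6a1) and 0.87 (Cox6b1, not called), and Cox6a2 itself by 0.24. The log2 ratio of Cox4i2 to Cox4i1 was -8.66 ± 0.31 in injured and -6.80 ± 0.05 in basal cells (SD, n = 4 each), a difference of -1.86. That of Cox6b2 to Cox6b1 differed by -1.71 and that of Cox6a2 to Cox6a1 by -1.26. None of these 3 ratios overlapped between groups (exact permutation p = 0.0286 each, 0.0343 after adjustment over the 6 pairs). In the authors' deposited table the difference was -0.59 for Cox6a2 to Cox6a1 (exact p = 0.171) and -1.28 for Cox6b2 to Cox6b1 (exact p = 0.114). The ratio of Cox7a1 to Cox7a2 differed by -0.98, but basal replicate 1 (-3.41) lay below injured replicate 4 (-3.35), and the exact permutation p was 0.0571 before and after adjustment. The absolute value of such a ratio compares different probes and has no meaning of its own. The probe of each isoform shares no run over 7 of its 60 bases with the probe of its partner.

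**Figure D3:**
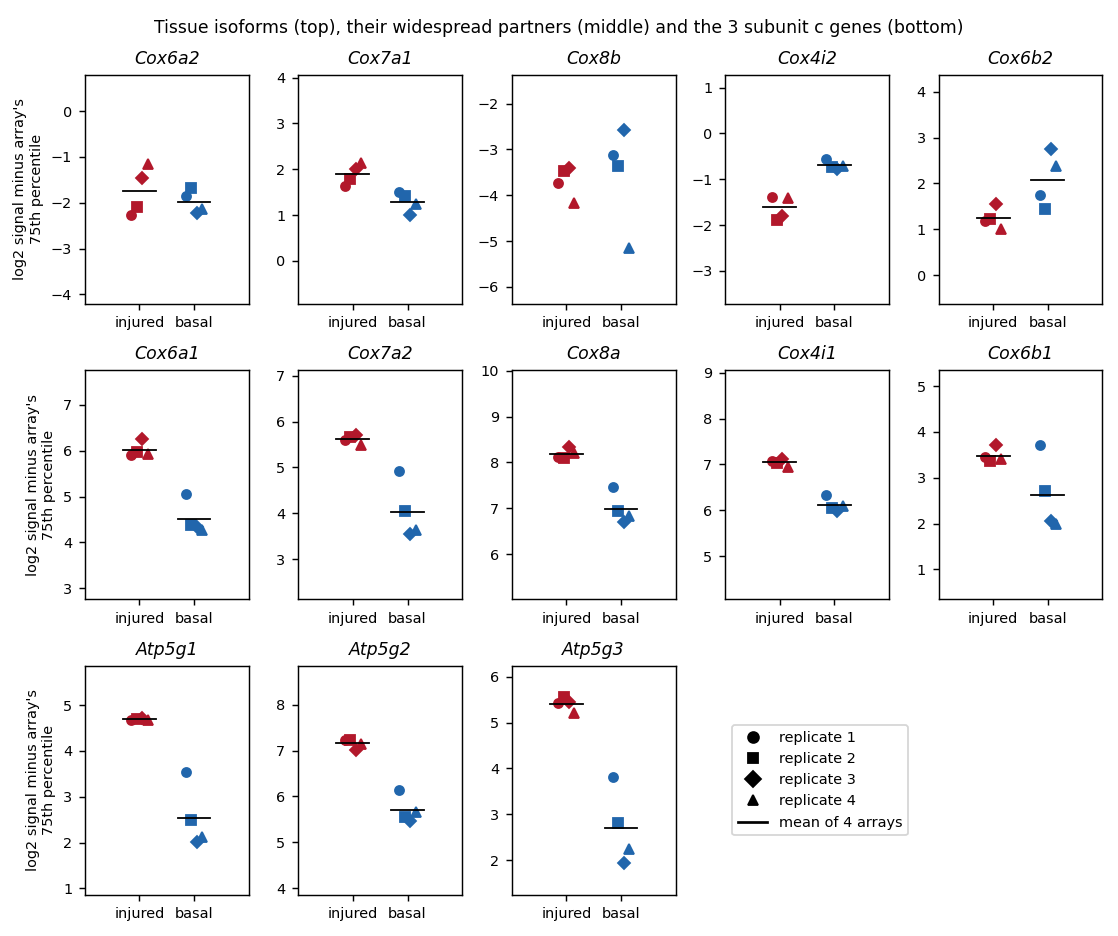
Each panel shows 1 gene, with the log2 signal relative to the array's 75th percentile on the vertical axis (each axis spans 5 log2 units or slightly more), injured arrays at left and basal arrays at right, and symbols for the replicate number. Lines are means of 4 arrays, left out for Cox8b, which was above background on only 1 array. The widespread partners in the middle row and the subunit c genes are higher on injured arrays, with Cox6b1 of basal replicate 1 among them, and Cox4i2 is lower.

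The names that belong to no subunit differed among themselves. Cox4nb, now Emc8, is a neighbour of Cox4i1 and encodes a subunit of the endoplasmic reticulum membrane complex. It was at 2.27, 2.16, 2.19 and 2.11 on injured arrays, against 0.32, 0.34, -0.21 and 0.23 on basal arrays (difference 2.01 ± 0.15, adjusted p = 2.19e-05), a larger rise than that of Cox4i1 (0.93). Atp5sl, now Dmac2, which acts in complex I assembly, was at 0.78, 1.03, 0.76 and 0.67 after injury, against 0.08, 0.98, 0.09 and 0.50 in basal cells. Basal replicate 2 lay among the injured arrays, and the difference of 0.40 ± 0.21 was not called (adjusted p = 0.136). Without basal replicate 2 it was 0.59 (adjusted p = 0.0169). Atp5s, now Dmac2l, was not above background on any array.

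The nuclear genes that build or accompany the complexes were mostly higher as well. Of 4 genes outside the name rule that were grouped here as ATP synthase associated, all were called higher, beside 35.5% of all genes tested. Atp5mpl rose by 2.53 ± 0.30, Atp5md by 1.73 ± 0.34, Atpif1, the inhibitor of ATP hydrolysis, by 1.62 ± 0.23, and Tmem256 by 0.87 ± 0.17. A link of Tmem256 to ATP synthase was not tested. Among 29 assembly factors of complexes III to V tested, 22 were higher and 1 lower, beside 35.5% and 24.7% of all genes tested. Their median difference was 1.20. Lrpprc, which stabilises mitochondrial mRNAs, rose by 1.96 ± 0.21 (adjusted p = 0.000114), Uqcc2, a complex III assembly factor, by 1.89 ± 0.66 (adjusted p = 0.0355) and Coa7 of complex IV assembly by 1.71 ± 0.27 (adjusted p = 0.000742). Uqcc2 had a dim value of -2.91 on basal replicate 2, without which the difference was 1.12 (adjusted p = 0.00175), and its call was lost without any single injured array (adjusted p = 0.0666 to 0.077). The exception was Ttc19, which clears Rieske protein fragments from complex III and fell by 0.76 on the log2 scale (adjusted p = 0.00498), with 0.37 to 0.72 on injured arrays, against 0.93 to 1.64 on basal arrays. In the authors' deposited table its difference was 0.54 and not called (adjusted p = 0.379). Of 36 complex I subunit genes, 32 were higher and none lower, beside 35.5% and 24.7% of all genes tested. Their median difference was 1.21, and the largest were those of Ndufab1 (2.01 ± 0.40), Ndufa10 (1.99 ± 0.16) and Ndufb8 (1.95 ± 0.24).

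The mitochondrially encoded partners of these subunits were mostly not called. Of 11 such genes, all above background on all 8 arrays, 1 was higher and 1 was lower, beside 35.5% and 24.7% of all genes tested. The other 9 were not called, and the median difference of the 11 was 0.13. For complex IV, COX1 was at 8.34, 8.35, 8.49 and 8.54 on injured arrays, against 8.26, 8.24, 8.25 and 8.03 on basal arrays (difference 0.23, adjusted p = 0.116). COX2 rose by 0.41 ± 0.13 (adjusted p = 0.0264) and COX3 fell by 0.43 on the log2 scale (adjusted p = 0.0288), and each of these calls was lost under several alternatives. CYTB of complex III was at 6.14, 6.13, 6.30 and 6.12 after injury, against 6.03, 5.96, 6.06 and 5.75 in basal cells (difference 0.22, adjusted p = 0.144). ATP8 of complex V had a difference of 0.28 (adjusted p = 0.125). In complex IV the nuclear subunit genes thus had a median of 1.50, beside -0.43 to 0.41 for COX1, COX2 and COX3. In complex III the median was 1.56, beside 0.22 for CYTB alone. In complex V it was 1.48, beside 0.28 for ATP8, the only mitochondrially encoded gene of that complex measured. For 5 of the 11 genes, COX2, COX3, ATP8, ND3 and ND4L, the array files place the probe on chromosome 1, and nuclear copies of mitochondrial DNA cannot be told apart from the mitochondrial transcripts there. The summed signal of the 11 genes was 1365 to 1490 times the array's 75th percentile on injured arrays, against 1123 to 1520 on basal arrays.

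**Figure D4:**
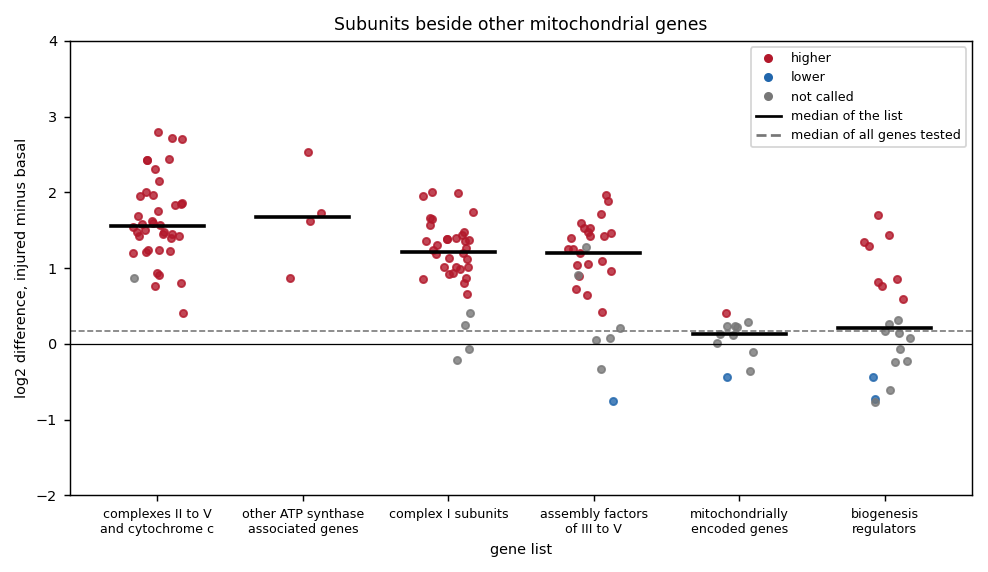
Points are log2 differences, injured minus basal, of single genes in each list, coloured by call, with the list's median as a black line and the median of all genes tested dashed. The 40 genes of complexes II to V and cytochrome c, the genes grouped as ATP synthase associated, complex I subunits and assembly factors lie mostly above 0.5. The 11 mitochondrially encoded genes lie between -0.43 and 0.41.

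Regulators of mitochondrial biogenesis were mixed, with 8 of 20 tested higher and 2 lower, beside 35.5% and 24.7% of all genes tested, and a median difference of 0.21. Tfam, which packages and transcribes the mitochondrial genome, was at -0.53, -0.67, -0.56 and -0.72 on injured arrays, against -3.47, -1.97, -1.44 and -2.40 on basal arrays (difference 1.70 ± 0.38, adjusted p = 0.00439). It was above background on 3 basal arrays, and its value on basal replicate 1 lay below the dimmest signal called above background there (-2.58). Without basal replicates 1 and 2 the difference was 1.30 (adjusted p = 0.00421). The coactivator Ppargc1b rose by 1.44 ± 0.18 (adjusted p = 0.000274) and Twnk, the mitochondrial helicase, was at least 1.73-fold higher (adjusted p = 0.0321). Twnk was above background on 3 injured arrays and on no basal array, so its basal level was set, array by array, to the dimmest signal called above background or its own, whichever was higher. Its call was lost without injured replicate 2 (adjusted p = 0.084) or 3 (adjusted p = 0.0793). Mef2a fell by 0.73 on the log2 scale (adjusted p = 0.000731) and Ppara by 0.43 (adjusted p = 0.021). For Mef2a the mean of all its probes gave 0.12 (adjusted p = 0.613), and for Ppara the authors' deposited table gave 0.43 (adjusted p = 0.439). The next 4 genes were chosen after their values were seen, from those whose products bind or act at the motifs searched in the promoters. Others on the list, such as Yy1 and Gabpb1, were left out of the 4. Nrf1 had a difference of 0.08 ± 0.14 (adjusted p = 0.651) and was not called, and Ppargc1a of -0.77 ± 0.31 (adjusted p = 0.0577). Ppargc1a was called lower under 5 alternatives, with an adjusted p of 0.00244 (without basal replicate 4, difference -1.08) to 0.045, and was 0.30 in the authors' deposited table (adjusted p = 0.658). Esrra rose by 1.29 ± 0.14 (adjusted p = 0.000149), and Gabpa by 0.59 ± 0.17 (adjusted p = 0.0144), although the mean of all Gabpa probes gave -0.058 (adjusted p = 0.875). Gabpb1, also named after its value was seen, rose by 0.85 ± 0.12 (adjusted p = 0.000416, limma).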

How the data were processed

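Spot signals, in intensity units, came from the scanner files deposited by the authors, which per the file headers hold the output of the Agilent software Feature Extraction (version 10.7.3.1) with background subtraction and detrending and no scaling between arrays. The table of normalized log2 values deposited by the authors was used as an alternative only. Its columns correlated with the scanner signals at r = 0.571 to 0.952 across genes, and no source used here gives the steps that made it.

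The log2 processed signal minus the array's 75th percentile was analysed. The 1119 uneven or outlying spots were left out, spots of a probe were averaged, and each gene was represented by its probe of highest mean signal. Genes entered the test where 3 or more of the 4 arrays of a group had that probe well above background. Members kept the array's names, and other genes were named from the RefSeq table of GRCm38.p6. The comparison of the groups used limma (version 3.58.1, R 4.3.3) (two-sided, Benjamini-Hochberg over 13560 genes, of which 8761 had an unadjusted p under 0.05). Errors are moderated SE unless an SD is named. Isoform ratios were compared by exact two-sided permutation over arrays, adjusted over the 6 pairs tested. The code was tested on simulated data. Positions of probes were taken from the array files (mm9), and promoters are from RefSeq (GRCm38.p6).

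All member genes could be named. Every array's value is given for complex II, Cyc1, Cycs, the tissue isoforms, Atp5g1 to Atp5g3, the 3 largest and 2 smallest differences of complexes III, IV and V, and members called lower or not called. Of other lists, up to 3 called genes with the largest difference in the main direction and up to 2 in the other were named. The members, lists and alternatives were chosen with earlier results of these data known. Same-numbered replicates were not treated as pairs, since no label ties them: the correlation of their deviations from the group means was -0.003 to 0.094. Alternatives covered scaling, background correction, the deposited table, filters, probe summaries, variance models, the replicate number as a block and left-out arrays.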

Additional observations from a re-analysis of the deposited data

Results flagged for a closer look

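In each group of 4 arrays, the gap between the highest or lowest array and its nearest neighbour was divided by the group's range and set against Dixon's 95% critical value. Of 98 such groups of member genes, 9 exceeded it, and chance alone gives about 1 in 20. The ratio was 0.96 for Sdha on injured replicate 2 (1.75, next 1.41), 0.955 for Atp5d on injured replicate 3 (5.17, next 4.93) and 0.91 for Atp5e on basal replicate 1 (4.76, next 3.80). It was 0.906 for Cox5b on injured replicate 1 (4.83, next 5.01) and 0.895 for Cox7b2 on injured replicate 3 (0.45, next -4.57), the only array on which Cox7b2 was above background. It was 0.87 for Atp5f1 on injured replicate 1 (3.05, next 3.17), 0.86 for Atp5k on injured replicate 3 (4.21, next 4.00), 0.852 for Cox6a1 on basal replicate 1 (5.06, next 4.39) and 0.846 for Atp5j on injured replicate 3 (3.23, next 2.97). In Cox7b2 the gap was 5 log2 units, and in the other genes the array stood apart from its group by less than 1 log2 unit.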

How the results depend on the processing

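No member gene called in the comparison of all arrays changed direction under any alternative. The number called higher, 41 of 47, was 39 under both quantile settings, 31 in the authors' deposited table, 44 without basal replicates 1 and 2, 40 to 43 with single arrays left out and 9 without injured replicates 2, 3 and 4, where fewer samples enter. The 2 lower calls were 0 in the deposited table and without injured replicates 2, 3 and 4, and 1 to 2 with single arrays left out. Of all genes tested, 35.5% were called higher with all arrays, and 33.8% and 33.6% under quantile normalization without and with normexp. The share was 24.2% in the deposited table, 36.1% without basal replicates 1 and 2 and 30.9% to 36.1% with single arrays left out. The median difference of the subunits was 1.24 to 1.96. In the deposited table Sdhd was 0.18 (adjusted p = 0.827), Uqcrb 0.17 and Cyc1 0.40, and none of these was called. In that table the median of all genes was 0.48, beside 0.17, and it called 3288 genes higher and 762 lower, beside 4810 and 3354, and the cause was not tested.

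With the replicate number as a block, 41 members were called higher and 2 lower, and no member's call changed. Over all genes the block gave 4549 higher and 3169 lower. The labels do not say that same numbers mark shared animals, and 1 of 4 injured arrays correlated best with its own number. A slide block was not run, since no slide holds both groups.

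In the 5 other mitochondrial lists the 67 higher calls were 60 to 71 with single arrays left out and 10 without injured replicates 2, 3 and 4. The 4 lower calls were 7 under quantile normalization, 8 under median scaling, 8 under normexp with quantile normalization, 0 in the deposited table, 0 without injured replicates 2, 3 and 4, and 2 to 7 with single arrays left out. These lists held 100 tested genes. Of all genes tested, 35.5% were called higher and 24.7% lower with all arrays. The higher share was 30.9% to 36.1% with single arrays left out. Differences turned for Ttc19 (0.54) and Ppara (0.43) in the deposited table and for Mef2a (0.12) and Gabpa (-0.058) with the mean of all probes.

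Of the isoform ratios, in the deposited table Cox6a2 to Cox6a1 was -0.59, Cox6b2 to Cox6b1 -1.28 (neither past the threshold) and Atp5g1 to Atp5g3 0.24. Atp5g1 to Atp5g2 missed the threshold under quantile normalization (0.68), normexp with quantile normalization (0.54) and normexp with the 75th percentile (0.53), and Cox7a1 to Cox7a2 passed it under the last (-0.95). Without basal replicates 1 and 2, Cox6b2 to Cox6b1 was -2.78 and Atp5g1 to Atp5g2 1.03. With single arrays left out the ratios ran from -1.49 to -1.12 (Cox6a2 to Cox6a1), -1.20 to -0.86 (Cox7a1 to Cox7a2), -1.97 to -1.77 (Cox4i2 to Cox4i1), -2.18 to -1.30 (Cox6b2 to Cox6b1), 0.58 to 0.89 (Atp5g1 to Atp5g2) and -0.62 to -0.47 (Atp5g1 to Atp5g3). Dim probes limit Cox6a2, which lay close to the dimmest signals called above background (-3.08 to -2.51).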
